A study of Mus musculus with 6 samples.

Results

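The genes described here are 10 genes of T cells and cytotoxic lymphocytes, *Cd3e*, *Cd4*, *Cd8a*, *Foxp3*, *Ctla4*, *Pdcd1*, *Gzma*, *Gzmb*, *Prf1* and *Ifng*, taken by name from a table of 54167 genes in colorectal tumors. All 10 were in the table. RNA-seq covered 6 tumors of male C57BL/6J mice, 3 from Trp53fl/fl mice, which have loxP sites around both *Trp53* alleles and no Cre, and 3 from VP mice, which carry the same alleles plus Pvillin-Cre. In both groups, 8-week-old mice were injected with the carcinogen azoxymethane (AOM) at 10 mg/kg and then drank 2.5% dextran sulfate sodium (DSS), an agent that causes colitis, in 7-day cycles, and tumors were collected at day 98. The villin promoter drives Cre in intestinal epithelium, so the lymphocytes of a VP tumor are not the cells in which *Trp53* was to be removed, and the tumors hold epithelium, leukocytes and stroma together. The question put to these genes is whether their RNA differed between tumors with and without *Trp53* in the epithelium.

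T cells recognise antigen through a receptor whose chains signal through the CD3 proteins. CD4 and CD8 are coreceptors that mark helper and cytotoxic T cells, Foxp3 is the lineage factor of regulatory T cells, and CTLA-4 and PD-1 restrain activated T cells. Cytotoxic T cells and natural killer (NK) cells kill by releasing perforin, which opens the target membrane, and granzymes, proteases that enter the target, and both secrete interferon gamma. In the colon such cells lie within the epithelium and in the tissue below it.

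Among the 10 genes, *Gzma* alone separated the genotypes, with every VP tumor above every Trp53fl/fl tumor, a pattern that 19.3% of all genes tested showed in either direction and 6.03% with VP higher. *Cd3e*, *Cd4*, *Cd8a* and *Foxp3*, which mark T cells and their CD4, CD8 and regulatory subsets, overlapped between the genotypes. Other genes of the T cell receptor were mixed. Of 13 tested genes of the receptor complex and its signaling 4 were lower in every VP tumor, *Cd247* among them. Of 6 tested constant regions 1 was, *Trbc1*, while *Trbc2*, *Trac* and *Trdc* overlapped. None passed adjustment, and 13.3% of all genes tested were lower in VP tumors without overlap. Of the 7 members that could be tested across genes, 0 passed limma's test after adjustment, which 0.165% of all genes did. Values are TPM, which are corrected for transcript length and brought to a common total per tumor, so levels of different genes can be set side by side. In bulk tumors, fewer cells of a type and less RNA per cell cannot be told apart.

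Granzyme A and granzyme B are the cytotoxic effectors among the 10 genes with the most RNA in these tumors. The 250 bases before their transcription starts are shown because *Gzma* separated the genotypes and *Gzmb* did not. The ratio of *Gzmb* to *Gzma* within a tumor, which sets these contrasts against each other, overlapped between the genotypes (log2 difference -0.70, exact permutation p = 0.3). A difference between the contrasts was thus not shown. Sequences are from RefSeq on GRCm38.p6, on the minus strand in both cases, written 5′ to 3′. Capitals mark matches, on either strand, to the Runx motif with the letters TGTGGT, the T-box motif with the letters TCACAC or the AP-1 motif with the letters TGANTCA, and no matches overlap. The letters TATAAA, searched for the TATA box, and TGACG, searched for the core of the cAMP response element, were found in neither window. Variants of these letters, such as the tatataag near the end of the *Gzma* window, were not searched, so neither window is shown to lack these elements.
Gzma, chr13:113100982-113101231: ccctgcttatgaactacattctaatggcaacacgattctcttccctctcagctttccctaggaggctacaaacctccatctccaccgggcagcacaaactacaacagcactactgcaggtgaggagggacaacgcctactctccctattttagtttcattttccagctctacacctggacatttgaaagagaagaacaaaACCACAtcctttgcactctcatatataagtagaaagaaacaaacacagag
Gzmb, chr14:56262335-56262584: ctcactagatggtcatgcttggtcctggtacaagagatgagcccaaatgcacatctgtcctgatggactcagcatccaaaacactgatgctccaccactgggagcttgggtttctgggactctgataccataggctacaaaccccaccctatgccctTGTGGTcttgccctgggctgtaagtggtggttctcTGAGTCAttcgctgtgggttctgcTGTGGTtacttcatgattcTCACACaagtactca

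The *Gzma* window holds 1 match, to the Runx motif on the opposite strand, 50 to 45 bases before the start. The *Gzmb* window holds 4, with the Runx motif at 93 to 88 and at 34 to 29 bases before the start, AP-1 at 58 to 52 and T-box at 15 to 10. These distances are from the RefSeq start, which for *Gzma* is also the GENCODE start; the GENCODE start of *Gzmb* lies 74 bases downstream, so by it each *Gzmb* match is farther away by that much. Among 32851 windows of the same length, 14.0% hold the Runx letters, 12.3% the T-box letters and 6.75% the AP-1 letters, while 12.4% hold those of the TATA box and 17.8% those of the cAMP response element. Of the 9 members with a window, the Runx letters were in *Gzma*, *Gzmb* and *Prf1*. A match describes letters and is not a binding site. *Cd4* had no window.

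The cytotoxic effectors are *Gzma* (ENSMUSG00000023132, chromosome 13, 113093825 to 113100981), *Gzmb* (ENSMUSG00000015437, chromosome 14, 56258838 to 56262260) and *Prf1*, which encodes perforin (ENSMUSG00000037202, chromosome 10, 61297833 to 61304680). These and the other positions are those of GENCODE M21 on GRCm38. *Gzma* was at 2.13, 2.33 and 1.58 TPM in Trp53fl/fl and 3.48, 4.41 and 3.99 TPM in VP tumors. All 3 VP tumors were above all 3 Trp53fl/fl tumors, with means of 3.96 ± 0.466 TPM (SD, n = 3) against 2.01 ± 0.388 TPM (SD, n = 3). On the log2(TPM + 1) scale, on which changes of low genes look smaller, the difference was 0.72 (standard error 0.18, 95% interval 0.30 to 1.15). It had an unadjusted p of 0.00508 and an adjusted p of 0.274 in limma, so it did not pass the test over all genes. The exact two-sided permutation test gave p = 0.1, the smallest that 3 tumors against 3 allow. Over 14 alternative settings the difference of *Gzma* ran from 0.54 to 0.95, with adjusted p from 0.142 to 0.610.

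*Gzmb* did not follow *Gzma* tumor by tumor. It was at 5.49, 3.31 and 3.72 TPM in Trp53fl/fl and 2.84, 6.75 and 5.97 TPM in VP tumors. VP replicate 1 was the lowest of all 6 tumors and VP replicates 2 and 3 were the highest, and the difference of 0.22 (95% interval -0.50 to 0.93, limma adjusted p = 0.780) was smaller than the spread within either genotype. *Prf1* was at 0.17, 0.21 and 0.70 TPM against 0.16, 0.28 and 0.08 TPM, and was too low for the fit across genes. Its 0.70 TPM in Trp53fl/fl replicate 3 stood above the other 5 tumors, and the genotypes overlapped (exact permutation p = 0.4). *Ifng* (ENSMUSG00000055170, chromosome 10, 118441046 to 118445892) was listed at 0.14, 0.07 and 0.00 TPM in Trp53fl/fl and 0.00, 1.34 and 0.28 TPM in VP tumors. Interferon gamma RNA thus reached 1 TPM in VP replicate 2 alone, the tumor in which *Gzma* and *Gzmb* were also highest (exact permutation p = 0.4 for *Ifng*). An unclassified transcript, *Gm49751*, overlaps *Ifng* on the same strand.

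**Figure D1:**
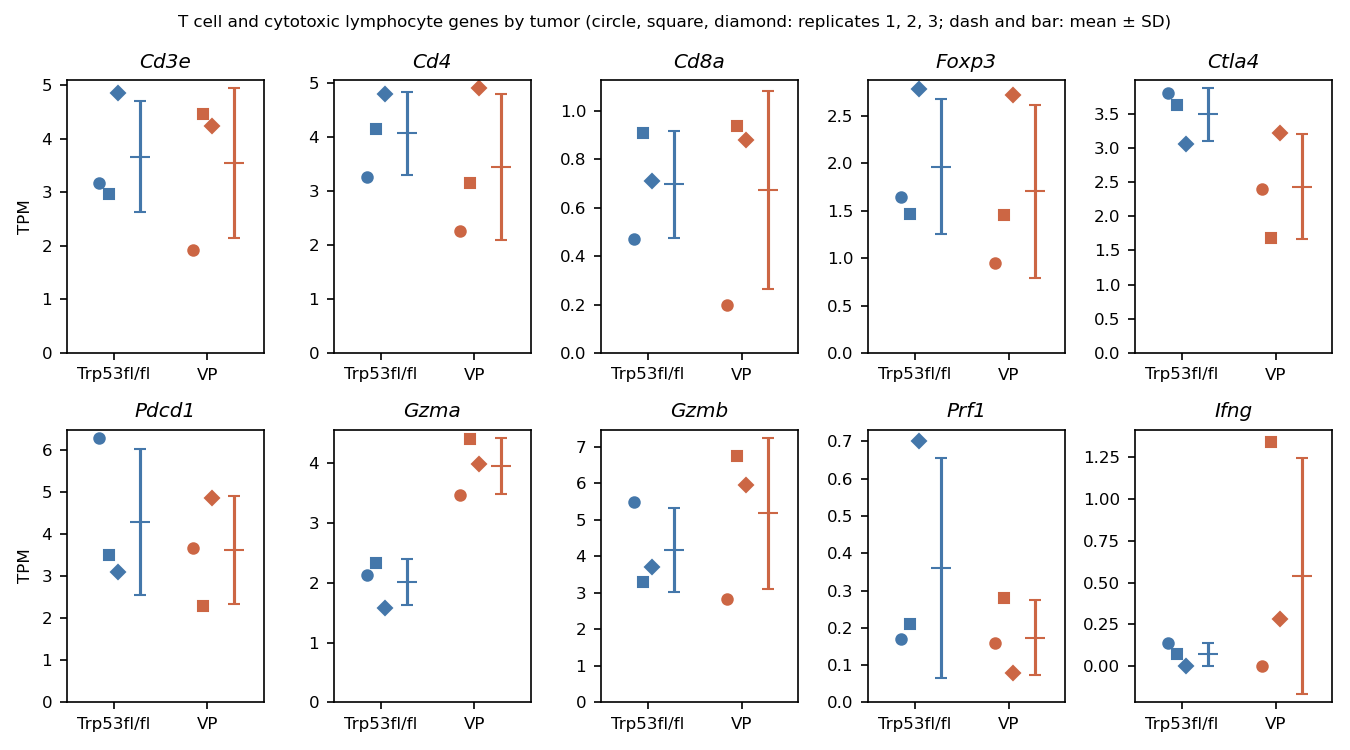
TPM of each of the 10 genes in each tumor, with the Trp53fl/fl tumors in blue and the VP tumors in orange; symbols stand for replicates 1, 2 and 3, and the dash and bar for the mean ± SD of 3 tumors. The vertical scale differs between panels; *Gzma* is the panel without overlap, 1.58 to 2.33 TPM against 3.48 to 4.41 TPM.

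The general T cell marker *Cd3e*, a signaling chain of the T cell receptor (ENSMUSG00000032093, chromosome 9, 44998740 to 45009627), was at 3.17, 2.97 and 4.85 TPM in Trp53fl/fl and 1.93, 4.47 and 4.23 TPM in VP tumors. VP replicate 1 was the lowest tumor, and the other VP tumors lay inside the Trp53fl/fl range. The difference was -0.07 (standard error 0.29, 95% interval -0.76 to 0.62, limma adjusted p = 0.934). It was 0.01 after quantile normalization and 0.22 without VP replicate 1, so these tumors give *Cd3e* no direction. An antisense gene, *Gm48719*, overlaps *Cd3e*, and whether the counting used strand is not given in the sources used here.

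The coreceptor genes overlapped between the genotypes too. *Cd4* (ENSMUSG00000023274, chromosome 6, 124864692 to 124888221) was at 3.27, 4.15 and 4.80 TPM in Trp53fl/fl and 2.27, 3.16 and 4.92 TPM in VP tumors, with the highest and the lowest value both in VP tumors. Its difference was -0.22 (95% interval -0.82 to 0.38, limma adjusted p = 0.728). *Cd8a* (ENSMUSG00000053977, chromosome 6, 71373427 to 71379173) stayed below 1 TPM throughout, at 0.47, 0.91 and 0.71 TPM in Trp53fl/fl and 0.20, 0.94 and 0.88 TPM in VP tumors. VP replicate 1 was again the lowest and the means were 0.697 ± 0.220 and 0.673 ± 0.411 TPM (SD, n = 3 each, exact permutation p = 0.9). *Cd8a* was below *Cd4* in each of the 6 tumors, with log2 ratios of (TPM + 0.1) from -2.98 to -1.65. This ratio did not separate the genotypes, at -2.41 ± 0.29 in the Trp53fl/fl and -2.33 ± 0.67 in the VP tumors (SD, n = 3 each, exact permutation p = 0.8).

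*Foxp3* (ENSMUSG00000039521, chromosome X, 7573644 to 7595245) was at 1.65, 1.47 and 2.78 TPM in Trp53fl/fl and 0.95, 1.45 and 2.72 TPM in VP tumors. Replicate 3 was the highest in both genotypes and VP replicate 1 the lowest of all, and the difference was -0.16 (95% interval -0.86 to 0.54, limma adjusted p = 0.836), or 0.05 without VP replicate 1. *Foxp3* overlaps 4 annotated genes, among them *Ccdc22* and *Ppp1r3f* on the other strand, so part of its reads could belong to them. Relative to *Cd4*, *Foxp3* had a log2 ratio of -1.05 ± 0.35 against -1.03 ± 0.18 (SD, n = 3 each, exact permutation p = 1.00).

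The inhibitory receptors were lower on average in VP tumors without separating the genotypes. *Ctla4*, whose product competes with CD28 for its ligands (ENSMUSG00000026011, chromosome 1, 60887000 to 60915832), was at 3.80, 3.62 and 3.05 TPM in Trp53fl/fl and 2.40, 1.68 and 3.21 TPM in VP tumors. Only VP replicate 3 reached into the Trp53fl/fl range, and the difference of -0.41 (standard error 0.21, 95% interval -0.91 to 0.09) had an unadjusted p of 0.0954 and an adjusted p of 0.463 in limma. *Ctla4* differences ran from -0.59 to -0.24 over 14 settings, and the unadjusted p was under 0.05 in 2 of them. *Pdcd1*, which encodes PD-1 (ENSMUSG00000026285, chromosome 1, 94038305 to 94052553), was at 6.29, 3.50 and 3.09 TPM against 3.68, 2.30 and 4.87 TPM. Trp53fl/fl replicate 1 was the highest tumor, and the difference of -0.19 (95% interval -0.90 to 0.52, limma adjusted p = 0.807) became 0.07 without it. A pseudogene, *Rpl18-ps1*, overlaps *Ctla4* on the same strand, so part of its reads could belong to it.

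Of the 10 genes, 7 reached 1 TPM in 3 or more tumors, the filter for the fit, and *Cd8a*, *Prf1* and *Ifng* did not. With limma, 0 of the 7 had an adjusted p under 0.05 and 1, *Gzma*, an unadjusted p under 0.05, where 12.5% of 15117 genes had one. Of the 7, 5 were lower and 2 higher in VP tumors, where 60.8% of all genes tested were lower. Their median difference was -0.16, beside -0.07 for all genes tested, and it changed sign to 0.05 without VP replicate 1 and to 0.03 without Trp53fl/fl replicate 3.

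**Figure D2:**
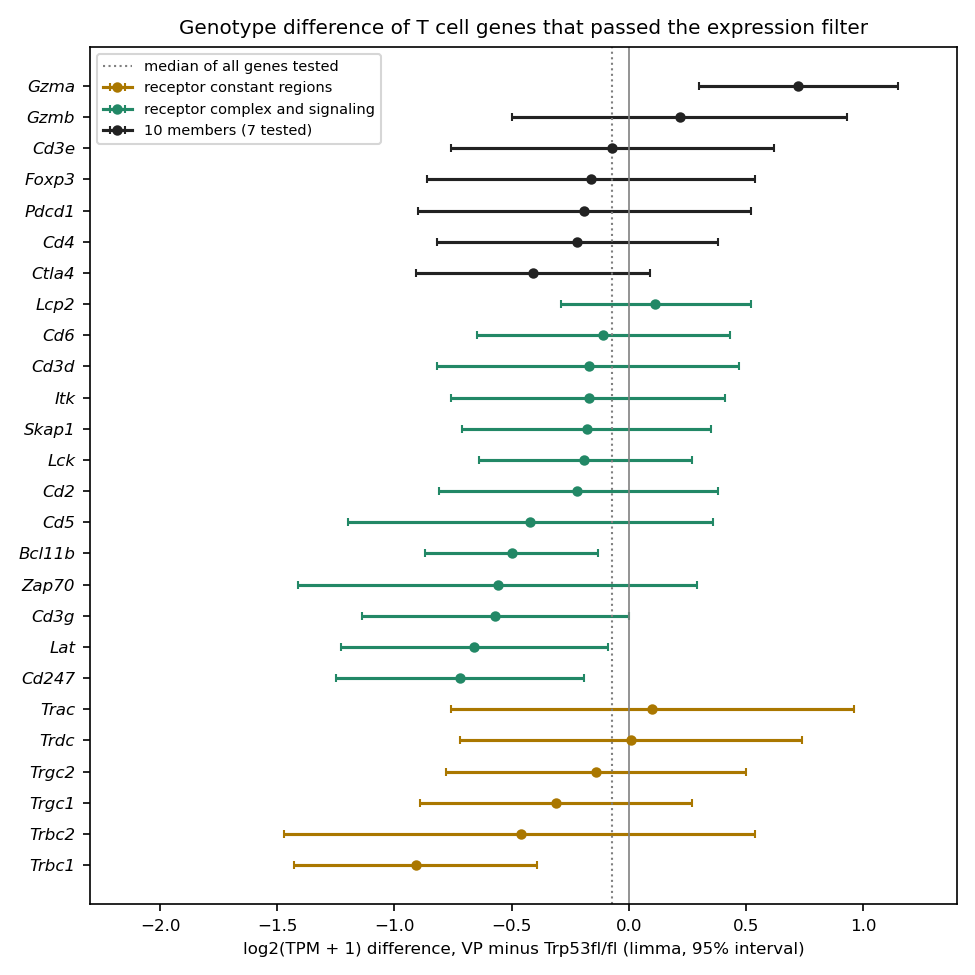
Difference in log2(TPM + 1), VP minus Trp53fl/fl, for the T cell genes that passed the filter, with limma's 95% interval; black points are the members, green the receptor complex and signaling genes and ochre the receptor constant regions. *Gzma* is the member whose interval lies above 0; the dotted line is the median of all genes tested, -0.07.

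Over the 6 tumors, *Gzmb* had the highest mean level of the 10 at 4.68 ± 1.6 TPM (SD, n = 6), then *Pdcd1* at 3.96 ± 1.42, *Cd4* at 3.76 ± 1.04, *Cd3e* at 3.60 ± 1.10, *Gzma* at 2.99 ± 1.13, *Ctla4* at 2.96 ± 0.795 and *Foxp3* at 1.84 ± 0.745 TPM. *Cd8a* followed at 0.685 ± 0.295, *Ifng* at 0.305 ± 0.518 and *Prf1* at 0.267 ± 0.222 TPM. Neighbors in this order overlapped within 1 SD, except that *Foxp3* and *Cd8a* did not, *Foxp3* being above *Cd8a* in 6 of 6 tumors. *Gzmb* was above *Pdcd1* in 3 of 6 tumors, and in the Trp53fl/fl tumors alone *Pdcd1* had the higher mean, 4.29 against 4.17 TPM. The order of *Gzma* differed between the genotypes, sixth in the Trp53fl/fl tumors, where *Ctla4* was above it in 3 of 3, and second in the VP tumors, after *Gzmb*, though above *Pdcd1*, the next, in 1 of 3.

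One tumor stood low for many of these genes. VP replicate 1 was alone the lowest of the 6 for 5 of the 10 members, and tied at 0.00 TPM with Trp53fl/fl replicate 3 for *Ifng*. It was alone the lowest for 20.0% of all genes tested. The sum of the 10 genes was 26.6, 22.5 and 25.3 TPM in the Trp53fl/fl tumors and 17.9, 26.8 and 31.2 TPM in the VP tumors, so the VP tumors held both the lowest and the highest sums. *Gzma* was above the Trp53fl/fl range even in VP replicate 1, where *Cd3e* was at its lowest.

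**Figure D3:**
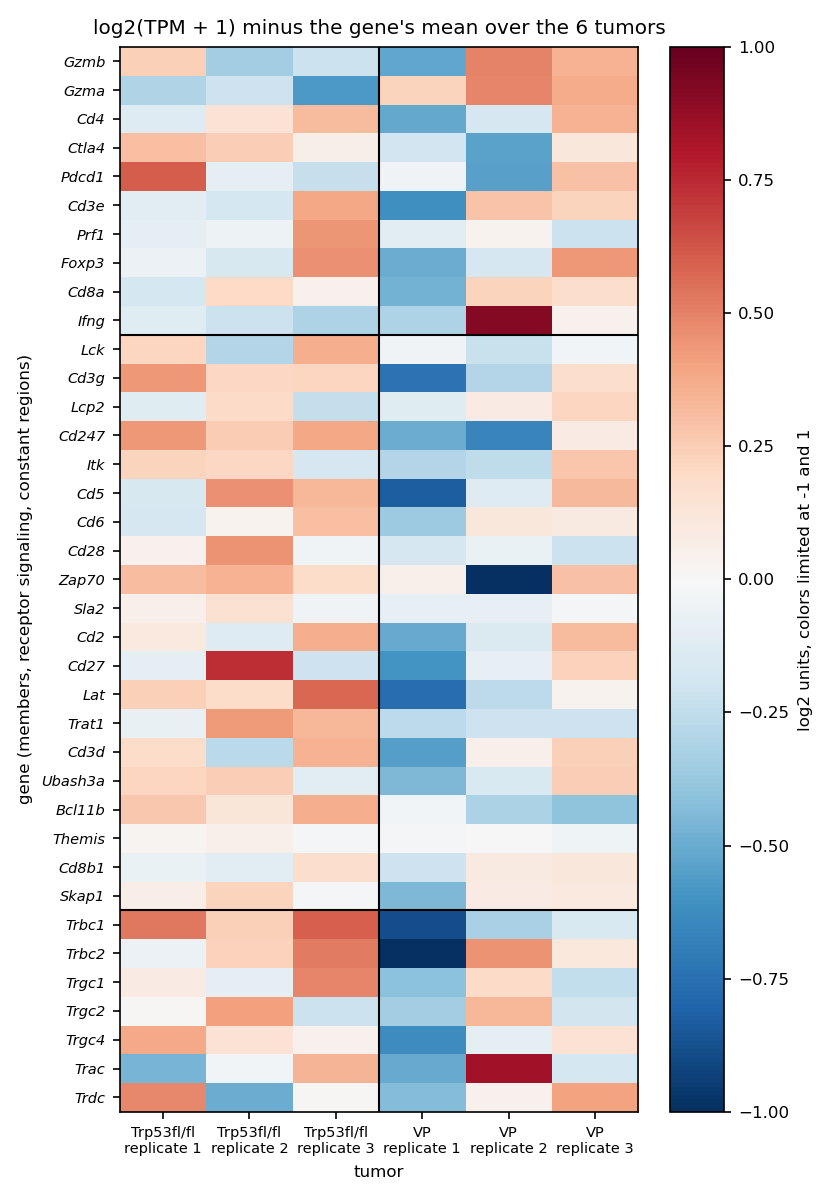
Heat map of log2(TPM + 1) minus the gene's mean over the 6 tumors, with tumors in columns and, from top to bottom, the 10 members, the receptor complex and signaling genes and the receptor constant regions above 0 TPM in any tumor; red is above and blue below the gene's mean, and colors stop at -1 and 1. The column of VP replicate 1 is mostly blue, and the row of *Gzma* is blue in the Trp53fl/fl and red in the VP tumors.

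Ratios within a tumor depend on the scaling of that tumor only through the added 0.1 TPM, and 11 were compared. *Gzma* relative to *Cd3e* was the only ratio without overlap, with log2 ratios of -0.55, -0.34 and -1.56 in the Trp53fl/fl tumors and 0.82, -0.02 and -0.08 in the VP tumors. The VP tumors were higher by 1.06 on average (exact permutation p = 0.1, 1.00 after adjustment over the 11 ratios), and leaving out any one tumor gave 0.68 to 1.29. *Gzmb* relative to *Gzma* differed by -0.70 with overlapping genotypes (exact permutation p = 0.3). *Prf1* relative to *Cd3e* differed by -0.54 (exact permutation p = 0.5), *Ctla4* relative to *Foxp3* by -0.28 (exact permutation p = 1.00) and *Pdcd1* relative to *Cd3e* by -0.13 (exact permutation p = 0.7). *Cd3e* relative to *Ptprc*, which encodes the leukocyte antigen CD45, differed by 0.29 (exact permutation p = 0.6), and relative to the epithelial gene *Epcam* by -0.11 (exact permutation p = 1.00).

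**Figure D4:**
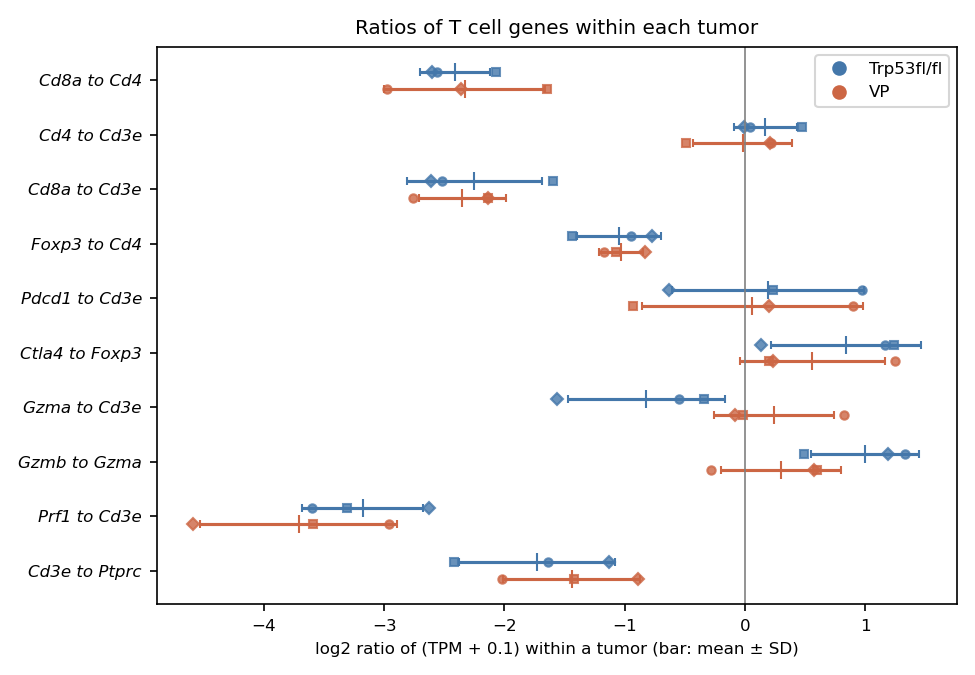
Log2 ratio of (TPM + 0.1) of pairs of genes within each tumor, Trp53fl/fl in blue and VP in orange, with circle, square and diamond for replicates 1, 2 and 3 and bars for the mean ± SD of 3 tumors. Only *Gzma* to *Cd3e* separates the genotypes, from -1.56 to -0.34 against -0.08 to 0.82.

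The tumor pattern of the members was compared with that of *Cd3e* by the root mean square difference of centred log2(TPM + 1) over the 6 tumors, as a description. *Foxp3* at 0.214, *Cd8a* at 0.220 and *Cd4* at 0.237 were nearest, with 292, 350 and 579 of 15110 other genes nearer. *Prf1* at 0.297 and *Gzmb* at 0.311 were closer to *Cd3e* than a flat profile, which lies at 0.341, while *Ifng* at 0.409, *Ctla4* at 0.469, *Gzma* at 0.535 and *Pdcd1* at 0.564 were farther. Outside the members the 5 genes nearest to *Cd3e* were *Dusp14* at 0.0993, *Isyna1* at 0.102, *Il21r* at 0.102, *Spn* at 0.104 and *Glt8d2* at 0.110.

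Beyond *Cd3e*, the T cell receptor complex and its proximal signaling were read from 20 genes, of which 13 passed the filter. None had an adjusted p under 0.05 in limma, and at an unadjusted p under 0.05 there were 3 lower and 0 higher in VP tumors. Of the 13, 12 were lower in VP tumors, 4 of them without overlap, as 13.3% of all genes tested were, and the median difference was -0.22, beside -0.07 for all genes. *Cd247*, the zeta chain that carries most of the receptor's signaling motifs, was at 5.31, 4.56 and 5.11 TPM in Trp53fl/fl and 2.30, 1.95 and 3.94 TPM in VP tumors. Every VP tumor was below every Trp53fl/fl tumor, with a difference of -0.72 (95% interval -1.25 to -0.19, limma adjusted p = 0.317). *Lat*, the adaptor that the activated receptor kinase phosphorylates, was at 4.5, 4.29 and 5.94 TPM against 1.76, 2.89 and 3.78 TPM, likewise without overlap (difference -0.66, limma adjusted p = 0.358). *Lcp2*, the adaptor SLP-76, was the one tested gene of the list with a higher mean in VP tumors (difference 0.11, limma adjusted p = 0.800).

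Chosen after their values were seen, *Bcl11b*, a T lineage factor, was at 10.06, 8.98 and 10.85 TPM against 8.0, 6.38 and 5.95 TPM (difference -0.50, limma adjusted p = 0.317), and *Cd3g* was at 7.91, 6.59 and 6.63 TPM against 2.95, 4.39 and 6.43 TPM (difference -0.57, limma adjusted p = 0.400). The remaining CD3 chain, *Cd3d*, overlapped as *Cd3e* did, with a difference of -0.17 (limma adjusted p = 0.805). The differences of the chains of one receptor complex thus ran from -0.72 for *Cd247* to -0.07 for *Cd3e*, with overlapping intervals, and the chains were not tested against each other. The 20 genes summed to between 77.1 and 81.8 TPM in the Trp53fl/fl and to between 51.3 and 73.9 TPM in the VP tumors. VP replicate 1 was alone the lowest tumor for 12 of the 20, and tied for *Sla2*. Without it, 10 of the 13 tested genes were lower, with 2 at an unadjusted p under 0.05 and a median of -0.11, where 59.7% of all genes were lower and their median was -0.07.

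Of 8 receptor constant region genes 6 were tested, 4 lower and 2 higher in VP tumors with a median of -0.22, and none passed adjustment in limma, with 1 lower and 0 higher at an unadjusted p under 0.05. *Trbc1*, a constant region of the beta chain, was at 11.60, 9.28 and 12.20 TPM in Trp53fl/fl and 3.71, 5.98 and 6.84 TPM in VP tumors, without overlap (difference -0.91, 95% interval -1.43 to -0.39, limma adjusted p = 0.269). *Trbc2*, a near-identical copy with which *Trbc1* can share reads, overlapped between the genotypes (difference -0.46, limma adjusted p = 0.658), so the split between the copies is uncertain. *Trac*, the alpha chain constant region, differed by 0.10 (limma adjusted p = 0.921) and *Trdc*, that of the delta chain, by 0.01 (limma adjusted p = 0.995). Without VP replicate 1, 4 of the 6 were higher, with a median of 0.03.

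Of 24 other cytotoxic and NK lymphocyte genes 11 were tested, 7 lower and 4 higher in VP tumors with a median of -0.06, and limma called 0 of them after adjustment and 0 at an unadjusted p under 0.05. *Gzmc*, another granzyme, was at 1.56, 1.51 and 0.59 TPM against 0.28, 2.15 and 3.35 TPM, and *Ccl5*, a chemokine of activated T cells, was at 10.96, 7.48 and 17.19 TPM against 8.34, 23.56 and 9.44 TPM. Both overlapped (limma adjusted p = 0.828 and 0.916). *Il2rb*, a receptor chain for interleukin-2 and interleukin-15, differed by -0.29 and *Cst7*, a protease inhibitor of cytotoxic cells, by -0.28 (limma adjusted p = 0.643 and 0.702). Of the receptor genes of NK cells, named after their values were seen, *Ncr1* and *Klrb1c* reached at most 0.21 and 0.26 TPM in any tumor, while *Klrd1*, *Klrk1* and *Klrg1*, which T cells express too, reached 1.62, 1.38 and 2.66 TPM. The part of NK cells in the *Gzma* values was not tested. After quantile normalization 6 of the 11 were higher, and without VP replicate 1 it was 8, with a median of 0.12.

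Of 14 regulatory T cell genes 11 were tested, 6 higher and 5 lower in VP tumors with a median of 0.15, and none passed adjustment in limma, with 1 higher and 0 lower at an unadjusted p under 0.05. That gene was *Tnfrsf9*, which encodes the costimulatory receptor 4-1BB, at 12.85, 8.25 and 10.72 TPM in Trp53fl/fl and 16.43, 16.54 and 20.12 TPM in VP tumors. All VP tumors were above all Trp53fl/fl tumors (difference 0.70, limma adjusted p = 0.278), as for 6.03% of all genes tested, while *Foxp3* overlapped. *Tnfrsf9* had a mean of 14.2 TPM over the 6 tumors, beside 1.84 TPM for *Foxp3*, and which cells its RNA came from was not tested. *Ikzf4*, below the filter and named after its values were seen, was lower in every VP tumor (exact permutation p = 0.1). It was at 0.84, 1.63 and 1.61 TPM against 0.38, 0.55 and 0.56 TPM. *Areg*, a growth factor that epithelium makes too, differed by 0.57 (limma adjusted p = 0.534), *Ccr8*, a chemokine receptor of regulatory T cells, by -0.39 (limma adjusted p = 0.558) and *Ikzf2*, which encodes Helios, by -0.28 (limma adjusted p = 0.717). With values centred on 12 epithelial genes, which moves the median of all genes to -0.25, the median of this list was -0.03.

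Of 16 other inhibitory receptors and checkpoint ligands 14 were tested, 8 lower and 6 higher in VP tumors with a median of -0.04, and none passed adjustment in limma, with 1 higher and 0 lower at an unadjusted p under 0.05. That gene was *Lgals9*, a galectin that binds the inhibitory receptor TIM-3, at 235.74, 208.81 and 246.40 TPM against 442.11, 385.94 and 312.24 TPM, without overlap (difference 0.71, limma adjusted p = 0.210). Of all genes tested 6.03% were higher in VP tumors without overlap. The mean of *Lgals9* over the 6 tumors was 305.2 TPM, beside 2.52 TPM for the TIM-3 gene, and which cells its RNA came from was not tested. *Cd274*, the PD-1 ligand PD-L1, was at 3.99, 3.55 and 3.80 TPM against 3.74, 7.94 and 4.43 TPM (difference 0.36, limma adjusted p = 0.564). Its highest value was in VP replicate 2, the tumor with the highest *Ifng* and the lowest *Pdcd1*. *Havcr2*, which encodes TIM-3, differed by -0.33 (limma adjusted p = 0.546) and *Cd200r1*, an inhibitory receptor of leukocytes, by -0.21 (limma adjusted p = 0.759). After quantile normalization, which moves the median of all genes to -0.02 and the share of genes lower to 52.6%, the median of the list was 0.04, with 9 of the 14 higher.

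Around *Ifng*, 18 genes of its induction, receptor and response were listed and 12 were tested, 7 higher and 5 lower with a median of 0.05, and none passed adjustment in limma, with 1 higher and 1 lower at an unadjusted p under 0.05. The chemokine gene *Cxcl10*, an interferon-induced attractant of T cells, was at 10.94, 4.06 and 10.65 TPM in Trp53fl/fl and 13.20, 40.41 and 26.20 TPM in VP tumors. The genotypes did not overlap, VP replicate 2 was highest as for *Ifng*, and the difference was 1.5 (95% interval 0.40 to 2.60, limma adjusted p = 0.317). *Stat4*, which relays interleukin-12 in T and NK cells, was at 2.64, 1.6 and 2.45 TPM against 0.76, 1.10 and 1.31 TPM, without overlap (difference -0.65, limma adjusted p = 0.341), and the kinase gene *Jak2* differed by -0.29 (limma adjusted p = 0.527). With epithelial centring the median of the list was -0.13, and with a tumor left out it lay between -0.04 and 0.08.

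Markers of other cell types, described by their sums over each list, differed between the genotypes for some lists and overlapped for others. All 8 neutrophil genes were higher in VP tumors (7 with epithelial centring or without Trp53fl/fl replicate 1, VP replicate 1 or VP replicate 2), summing to between 400.9 and 729.1 TPM in the Trp53fl/fl and to between 1175.5 and 1992.0 TPM in the VP tumors, and 4 of 5 red blood cell genes were higher, with sums of 164.5 to 483.9 and 647.8 to 992.3 TPM, while *Hba-a2* was at 0 in all tumors. Of 12 intestinal epithelial genes 10 were higher, with sums of 10628.2 to 10953.9 and 12069.0 to 13063.2 TPM. Of the general leukocyte genes 5 of 7 were higher, with overlapping sums of 258.6 to 300.4 and 236.6 to 365.6 TPM. Sums over 8 macrophage genes, 455.0 to 489.6 and 473.3 to 583.9 TPM, and over 8 B cell genes, 11.6 to 38.3 and 12.7 to 34.9 TPM, overlapped too. Lower means in VP tumors were found for all 7 dendritic cell genes, with sums of 14.3 to 16.1 and 8.21 to 14.4 TPM, and for 7 of 8 mast cell genes, with sums of 123.9 to 474.1 and 81.2 to 253.8 TPM. Of 8 genes of fibroblasts and smooth muscle 4 were lower and 4 higher. Of the lower, *Pdgfra* and *Lum* did not overlap, with limma adjusted p = 0.306 and 0.313, where 13.3% of all genes tested were lower without overlap. Plasma cell sums overlapped, at 884.4 to 1233.7 and 875.4 to 1363.5 TPM, as did endothelial sums, at 75.5 to 92.2 and 90.0 to 98.7 TPM. The part of these cell types in the values of *Gzma* and of the receptor genes was not tested. *Trp53* itself was at 99.30 to 147.45 TPM in the Trp53fl/fl and at 27.83 to 38.45 TPM in the VP tumors (difference -1.87, limma adjusted p = 0.0207), lower in every VP tumor. Sequencing depth is unknown, since TPM keep no read numbers, and values carry 2 decimals.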

How the data were processed

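RNA was extracted from 6 dissected tumors, poly(A)-selected and sequenced from both ends. The authors deposited TPM per gene, with 2 decimals and without pooling. The submitters' processing notes name HISAT2, StringTie and the mm9 build, while positions and promoters here are from GRCm38, in which 52093 of 54167 gene IDs (96.2%) have an entry. Columns were assigned through the codes in the sample labels. The p-values measure the spread between 3 tumors a genotype, and the labels do not say whether each came from its own mouse.

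From the deposited TPM, log2(TPM + 1) was tested with limma 3.58.1 in R 4.3.3 (two-sided, empirical Bayes with trend, Benjamini-Hochberg adjustment) over 15117 genes that reached 1 TPM in 3 or more tumors, without a block for the replicate number. The fit was tested on simulated data. Genes below the filter and ratios of (TPM + 0.1) were compared by two-sided exact permutation tests in scipy 1.17.1. The members and lists were chosen with earlier results of these data known. Named in the text are all 10 members, *Trp53*, the 5 genes most like *Cd3e* and, of each T cell list, genes past adjustment or else up to 2 with the largest tested increases and decreases; others are said to be chosen later, and some listed genes are not reported here singly. Alternatives were other pseudocounts, filters, scalings, the block, no trend and each tumor left out in turn.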

Additional observations from a re-analysis of the deposited data

How the results depend on the processing

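No member passed an adjusted p under 0.05 in any limma alternative run (0 in every fit with a tumor left out), and a mean of at least 5 TPM left none to test. At an unadjusted p under 0.05 it was 1, *Gzma*, also in each fit with a tumor left out, with *Ctla4* as a second without VP replicate 3 and with epithelial centring. Over all genes, 25 calls became 7 without a filter, 44 with epithelial centring, 10 with the replicate block and 6 to 28 with a tumor left out, and 1892 genes had an unadjusted p under 0.05. The share of calls higher in VP was 48.0%, 60.0% with median-of-ratios rescaling and 34.1% with epithelial centring. *Cd3e* turned to 0.01 and *Cd8a* to 0.0042 with quantile normalization, and the *Cd8a* to *Cd3e* ratio to 0.02 with a pseudocount of 1. The cause was not tested. With a tumor left out, *Cd3e* ran from -0.23 to 0.22, *Cd8a* from -0.17 to 0.18, *Foxp3* from -0.41 to 0.05, *Pdcd1* from -0.38 to 0.07 and the median of the members from -0.38 to 0.05. The ratios ran from -0.26 to 0.41 for *Cd8a* to *Cd4*, -0.30 to 0.05 for *Cd4* to *Cd3e*, -0.28 to 0.22 for *Cd8a* to *Cd3e*, -0.17 to 0.16 for *Foxp3* to *Cd4*, -0.55 to 0.36 for *Pdcd1* to *Cd3e*, -0.05 to 0.59 for *Cd3e* to *Ptprc* and -0.33 to 0.26 for *Cd3e* to *Epcam*. Same-numbered tumors did not deviate together (correlations 0.0185, -0.052 and 0.0175). Whether the numbers pair tumors is not stated in the labels, and correlations across genes cannot settle it. The block changed no member's call.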

Other observations

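Helper T cell genes were read from 18 lineage factors and cytokines, of which 10 were tested, 7 lower and 3 higher in VP tumors with a median difference of -0.22. None passed adjustment in limma, and at an unadjusted p under 0.05 there were 1 higher and 3 lower. *Il17a*, the cytokine of Th17 cells, overlapped at 2.07, 0.67 and 1.96 TPM in Trp53fl/fl against 1.16, 2.82 and 2.0 TPM in VP tumors (difference 0.24, limma adjusted p = 0.775). *Ccr6*, a chemokine receptor of Th17 cells, was lower without overlap, at 2.98, 2.32 and 2.01 TPM against 0.78, 1.58 and 1.54 TPM (difference -0.59, limma adjusted p = 0.370), as was *Ahr*, which encodes the aryl hydrocarbon receptor (difference -0.45, limma adjusted p = 0.341). Of 9 naive and memory T cell genes 8 were tested, 5 lower and 3 higher with a median of -0.31, and limma called 0 of them after adjustment and 0 at an unadjusted p under 0.05. *Lef1* differed by -0.74 (limma adjusted p = 0.401), *Il7r*, the interleukin-7 receptor, by -0.39 (limma adjusted p = 0.549) and *S1pr1*, which guides exit from lymphoid tissue, by 0.14 (limma adjusted p = 0.769). *Lef1* had a mean of 15.9 TPM over the 6 tumors, beside 3.60 TPM for *Cd3e*, and which cells its RNA came from was not tested.

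The variable segments of the T cell receptor were chosen after their values were seen and were not tested. In a mature T cell a variable segment is transcribed together with a constant region. The 165 *Trav* and *Trbv* segments in the table summed to 25.7, 37.0 and 36.0 TPM in the Trp53fl/fl tumors and to 10.4, 21.9 and 18.9 TPM in the VP tumors, so every VP tumor was below every Trp53fl/fl tumor. Apart, the *Trav* sums did not overlap, at 14.5, 14.9 and 19.3 TPM against 4.78, 13.2 and 7.33 TPM, and the *Trbv* sums did, at 11.2, 22.1 and 16.7 TPM against 5.58, 8.70 and 11.6 TPM. Segments above 0 TPM numbered 28, 31 and 34 against 15, 30 and 23, which overlap, and 79 were above 0 in any tumor. Variable segments resemble each other in sequence, so reads can be split among them uncertainly.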
